A study of Mus musculus with 9 samples.

Results

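A set of 9 liver enzymes for breaking down aromatic amino acids and histidine was measured in bulk mRNA-seq of mouse liver. They were taken by name, as the rows of the gene count table with the symbols Tat, Hpd, Hgd, Gstz1, Fah, Tdo2, Kmo, Hal and Uroc1. All 9 were found among the 24411 genes of the table, and all 9 were among the 11199 genes that passed the filter on low counts. The libraries came from 3 groups of 3 livers, taken at 3 months of age. The control livers (cont.) were Atg7flox/flox without Cre. The Atg7-KO livers were Atg7flox/flox;Alb-Cre, in which Cre driven from the albumin promoter deletes Atg7, an enzyme that autophagosome formation needs, in hepatocytes. The last group was Atg7flox/flox;Alb-Cre;p62S351A/p62S351A (S351A below), which adds to the same deletion a change of p62 that weakens its binding of KEAP1. The floxed Atg7 allele was therefore shared by all 9 livers, and the genotype field of S351A replicates 2 and 3 ends in S352A and S353A where the titles read S351A, so the titles were followed. The comparisons ask how the loss of Atg7 changes these mRNAs, and whether the p62 change alters them in livers that lack Atg7.

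Tyrosine is dismantled in the cytosol of hepatocytes by Tat, Hpd, Hgd, Gstz1 and Fah, acting in that order, to fumarate and acetoacetate. Tryptophan enters the kynurenine route through Tdo2, and Kmo hydroxylates kynurenine further along. Histidine loses its ammonia through Hal, and Uroc1 acts on the urocanate that Hal makes. The liver is a main site of all 3 routes, inherited loss of Fah, Hpd, Hgd or Tat causes the tyrosinaemias and alkaptonuria, and Tat and Tdo2 are classical targets of glucocorticoids.

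The libraries differed in depth. Total estimated counts ran from 1875325 to 15426570 for cont., from 1945483 to 3675058 for Atg7-KO and from 713841 to 792371.9 for S351A, so that each S351A library was smaller than every other library. Levels are given as CPM (counts scaled to a common library size after TMM, a scaling that assumes most genes unchanged), and 3 counts corresponded to 0.269 to 3.73 CPM, far below every member. Atg7 measured 45.1, 57.8 and 42.4 CPM in the cont. livers, 30.2, 28.0 and 28.4 CPM with Atg7 deleted and 21.8, 24.8 and 22.2 CPM with S351A added. Its level was lower in every deleted liver than in every cont. liver (log2 fold change -0.74 in Atg7-KO, edgeR quasi-likelihood test with Benjamini-Hochberg adjustment, adjusted p = 0.00758), while its transcripts remained detectable in whole liver. With total library size in place of TMM the Atg7 value was -0.21 (adjusted p = 0.829). Xist and Y-linked genes marked replicates 1 and 3 of cont., replicate 1 of Atg7-KO and replicate 1 of S351A as male and the other 5 libraries as female. Genes of the hepatocyte were abundant in all groups, and 14 hepatocyte markers summed to between 72878 and 151461 CPM in cont., between 49624 and 55331 CPM in Atg7-KO and between 49521 and 62011 CPM in S351A.

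The members together took 0.683, 0.943 and 0.641% of all counts in the cont. livers. They took 0.258, 0.300 and 0.287% in Atg7-KO and 0.237, 0.380 and 0.516% in S351A. In Atg7-KO against cont., all 9 were called lower, where a call means an adjusted p under 0.05 and a fold change over 1.5. Of all 11199 genes tested, 18.1% were called lower by the same rule. For each of the 9, every Atg7-KO library was below every cont. library, which held for 24.9% of all genes on the TMM scale. With total library size Kmo overlapped, and no such share of all genes is given for that scaling. The members' median log2 fold change was -1.62, against -0.03 over all genes. Over all genes 2226 were called higher and 2027 lower with TMM, against 4284 and 801 with total library size, a scaling that raises the median of all genes by 0.54. With that scaling 8 members were still called lower, and their median was -1.10.

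Per kilobase of annotated exon, Hpd was the most abundant member in cont., with 1475 ± 781 CPM per kb (SD, n = 3). Tat (607 ± 250) and Fah (567 ± 133) followed with ranges that overlapped each other, the highest Tat library also reaching the lowest of Hpd, and Uroc1 (304 ± 56.1), Hgd (210 ± 29.4), Gstz1 (189 ± 21.1) and Tdo2 (115 ± 40.1) came next. The ranges of Uroc1 and Hgd did not overlap, those of Hgd and Gstz1 did, and those of Gstz1 and Tdo2 did not. Hal (73.3 ± 26.6) and Kmo (68.6 ± 12.5) were lowest and overlapped each other, and Hal overlapped Tdo2. In Atg7-KO, Hpd (290 ± 33.6 CPM per kb), Fah (185 ± 16.5), Uroc1 (86.7 ± 9.02), Hgd (80.4 ± 6.65) and Gstz1 (76.1 ± 7.25) led. Uroc1, Hgd and Gstz1 overlapped one another. Tat came after them with 58.0 ± 12.5 CPM per kb and overlapped Gstz1, and Hal was last with 7.62 ± 1.49, below the range of Kmo (40.9 ± 6.25). In S351A the order was Hpd (492 ± 216 CPM per kb), Fah (250 ± 43.7), Uroc1 (131 ± 80.0), Gstz1 (99.9 ± 14.8), Tat (90.8 ± 85.7), Hgd (87.8 ± 21.2), Tdo2 (44.5 ± 13.1), Kmo (39.8 ± 11.7) and Hal (10.8 ± 4.75), and each neighbouring pair in this order overlapped except Hgd with Tdo2 and Kmo with Hal. These levels use the union of all annotated exons, which makes a gene with long, rarely used exons read low.

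**Figure D1:**
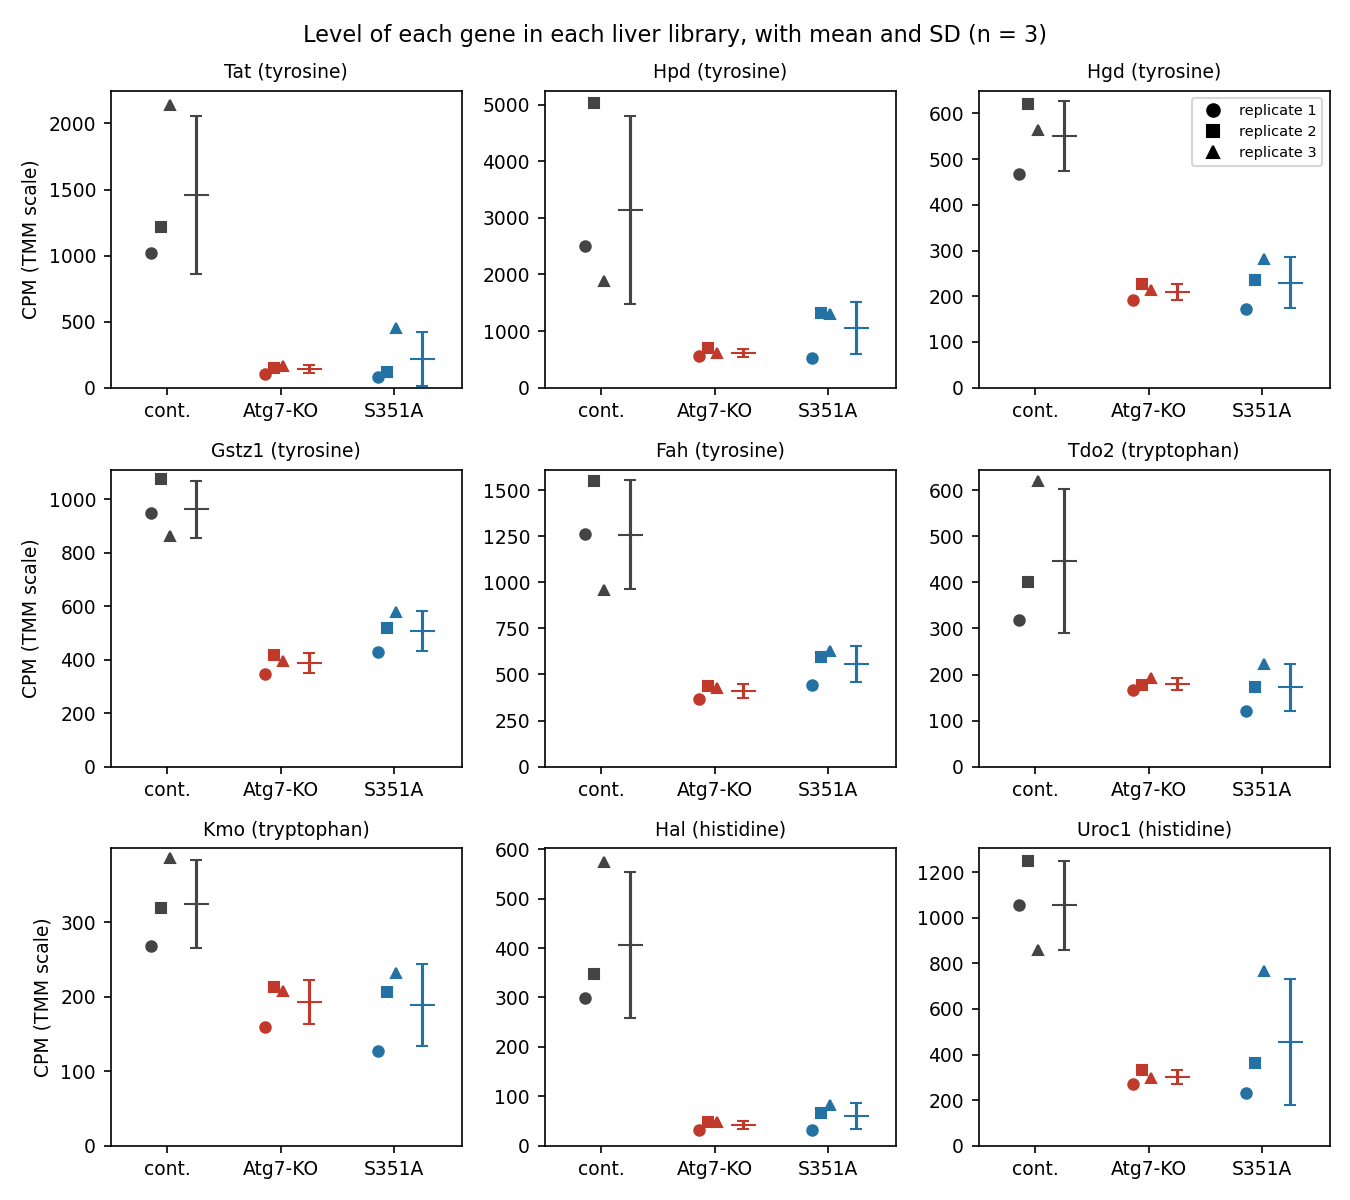
CPM on the TMM scale (y axis, from 0) of each gene in each of the 9 livers, by group, with the mean and SD (n = 3) beside the points. All 9 genes lie lower in every Atg7-KO library than in every cont. library, and S351A replicate 3 (triangles) is the highest S351A library for 8 of them.

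In Atg7-KO against cont., the entry step of tyrosine breakdown showed the largest difference among the members. Tat, the tyrosine aminotransferase, measured 1017, 1219 and 2143 CPM in the cont. livers, 106, 147 and 165 CPM with Atg7 deleted and 82.7, 117 and 455 CPM with S351A added. Its lowest cont. library thus lay well above the highest library of either deleted group. In Atg7-KO, Tat was 10.5-fold lower than in cont. (log2 fold change -3.39, SE 0.57, 95% interval -4.62 to -2.15, edgeR quasi-likelihood test, adjusted p = 6.47e-04), and only 0.625% of the tested genes had a lower log2 fold change. In S351A it was 6.69-fold lower than in cont. (log2 fold change -2.74, adjusted p = 0.00348), with a log2 fold change of -3.89 when S351A replicate 3 was left out. The gene lies on the plus strand of chromosome 8 at chr8:109990437-109999803 (GRCm38, GENCODE annotation), with no other annotated gene overlapping it.

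Hal, the histidine ammonia-lyase that opens histidine breakdown, was lower by nearly as much as Tat in Atg7-KO, and by slightly more in S351A. Its levels were 298, 348 and 574 CPM in the cont. livers, 32.7, 47.0 and 47.1 CPM with Atg7 deleted and 31.0, 65.8 and 82.7 CPM with S351A added. The S351A values rested on 27 to 67 counts per library, the fewest of any member. Hal was 9.67-fold lower in Atg7-KO than in cont. (log2 fold change -3.27, SE 0.36, edgeR adjusted p = 3.82e-05) and 6.82-fold lower in S351A (log2 fold change -2.77, adjusted p = 2.74e-04). It lies on the plus strand at chr10:93488768-93519304, with no other annotated gene overlapping it.

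The promoters of Tat and Hal, the members with the largest falls, and of Kmo, the member with the smallest, are shown as RefSeq gives them for GRCm38.p6. Each runs 5′ to 3′ from 250 bases before the start site to 50 after it, and capitals mark matches to one of the 6 motifs searched.
Tat promoter, chr8:109990186-109990485, plus strand: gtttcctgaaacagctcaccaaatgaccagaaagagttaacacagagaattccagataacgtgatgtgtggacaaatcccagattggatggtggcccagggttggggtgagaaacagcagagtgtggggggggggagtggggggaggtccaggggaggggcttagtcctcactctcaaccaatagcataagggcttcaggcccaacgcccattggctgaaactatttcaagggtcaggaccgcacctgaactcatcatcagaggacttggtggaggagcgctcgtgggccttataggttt
Hal promoter, chr10:93488518-93488817, plus strand: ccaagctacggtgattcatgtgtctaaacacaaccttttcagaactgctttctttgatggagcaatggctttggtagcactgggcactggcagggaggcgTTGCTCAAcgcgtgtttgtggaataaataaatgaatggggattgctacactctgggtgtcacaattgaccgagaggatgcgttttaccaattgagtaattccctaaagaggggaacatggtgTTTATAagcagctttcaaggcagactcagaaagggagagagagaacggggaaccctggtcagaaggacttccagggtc
Kmo promoter, chr1:175631943-175632242, plus strand: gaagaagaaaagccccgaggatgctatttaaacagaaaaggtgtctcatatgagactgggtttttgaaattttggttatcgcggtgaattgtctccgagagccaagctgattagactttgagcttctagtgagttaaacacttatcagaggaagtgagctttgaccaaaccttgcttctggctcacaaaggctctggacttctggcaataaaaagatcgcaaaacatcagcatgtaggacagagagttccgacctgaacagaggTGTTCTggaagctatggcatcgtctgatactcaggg
The Tat window held none of the 6 motifs. Hal held a C/EBP match (TTGCNNAA) beginning 150 bases before the start site and a TATA box (TATAAA, here on the opposite strand) beginning 28 bases before it, and Kmo a glucocorticoid receptor motif (TGTTCT) 15 bases after it. The Kmo window belongs to a start site other than the first one annotated for the gene. Over the 10 promoters that RefSeq lists for the members (Gstz1 has 2), searched on both strands, 2 held the C/EBP letters (Hal and Hgd), 3 the TATA box (Tdo2, Hal and Hgd), 1 the glucocorticoid receptor letters (Kmo) and 1 the NRF2 antioxidant response element core TGACNNNGC (Tdo2). Of all 32851 RefSeq promoters of this length, 10.8% held the C/EBP letters, 13.6% the TATA box, 19% the glucocorticoid receptor letters and 12.4% the NRF2 core. The HNF1 letters GTTAATNAT (0.801% of all promoters) and the HNF4 letters CAAAGTCCA (0.475%) were in none of the 10.

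Further along the tyrosine route the differences from cont. were smaller, and the cont. libraries stayed apart from those of both deleted groups. Hpd, which makes homogentisate, measured 2505, 5025 and 1888 CPM in the cont. livers, 552, 694 and 608 CPM with Atg7 deleted and 517, 1319 and 1304 CPM with S351A added. The female cont. library was the highest of all 9, and the 2 female S351A libraries lay above all Atg7-KO libraries while the male one lay below them. Hpd was 5.08-fold lower in Atg7-KO than in cont. (log2 fold change -2.35, SE 0.42, edgeR adjusted p = 0.00104) and 3.00-fold lower in S351A (log2 fold change -1.58, adjusted p = 0.0133). Each deleted group held 1 male library, so that no male value has a replicate there. Hpd lies on the minus strand at chr5:123171807-123182727, where Psmd9 overlaps it on the other strand and Gm26745 on its own.

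Fah, the fumarylacetoacetase that ends the route, measured 1264, 1549 and 959 CPM in the cont. livers, 368, 435 and 426 CPM with Atg7 deleted and 445, 595 and 626 CPM with S351A added. All S351A libraries lay between the Atg7-KO and the cont. libraries. Fah was 3.07-fold lower in Atg7-KO than in cont. (log2 fold change -1.62, SE 0.25, edgeR adjusted p = 4.06e-04) and 2.27-fold lower in S351A (log2 fold change -1.18, adjusted p = 0.00457). Gstz1, the maleylacetoacetate isomerase one step before it, had the same order of groups, with 950, 1075 and 861 CPM in the cont. livers, 347, 419 and 395 CPM with Atg7 deleted and 429, 519 and 578 CPM with S351A added. Gstz1 was 2.48-fold lower in Atg7-KO (log2 fold change -1.31, edgeR adjusted p = 6.76e-04) and 1.89-fold lower in S351A (log2 fold change -0.92, adjusted p = 0.00857). Hgd, which opens the ring of homogentisate, measured 468, 620 and 563 CPM in the cont. livers, 191, 226 and 213 CPM with Atg7 deleted and 171, 236 and 281 CPM with S351A added. Here the S351A libraries spread around the Atg7-KO ones on both sides. Hgd was 2.62-fold lower in Atg7-KO (log2 fold change -1.39, edgeR adjusted p = 6.90e-04) and 2.40-fold lower in S351A (log2 fold change -1.26, adjusted p = 0.00225). Pomt2 and Gm6566 overlap Gstz1, Gm46559 overlaps Hgd and Fh1 overlaps Kmo on the opposite strand, and since the sources used here do not say whether reads were counted by strand, reads of such neighbours cannot be told apart.

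Uroc1, the urocanate hydratase that follows Hal, measured 1057, 1249 and 860 CPM in the cont. livers, 271, 334 and 297 CPM with Atg7 deleted and 233, 364 and 766 CPM with S351A added. S351A replicate 3 came close to the lowest cont. library, while replicate 1 lay below all Atg7-KO libraries. Uroc1 was 3.51-fold lower in Atg7-KO than in cont. (log2 fold change -1.81, SE 0.37, edgeR adjusted p = 0.00221) and 2.32-fold lower in S351A (log2 fold change -1.22, adjusted p = 0.0258). The Uroc1 call in S351A against cont. was lost with total library size, with the 6 compared libraries alone and without cont. replicate 2 or S351A replicate 1 or 2, the adjusted p over the alternatives reaching 0.152. Without S351A replicate 3 the log2 fold change was -1.84.

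In the tryptophan route the differences were smaller than for Tat and Hal. Tdo2, the tryptophan dioxygenase, measured 319, 401 and 620 CPM in the cont. livers, 167, 178 and 193 CPM with Atg7 deleted and 122, 173 and 223 CPM with S351A added, so that the S351A libraries spanned the Atg7-KO range. Tdo2 was 2.49-fold lower in Atg7-KO than in cont. (log2 fold change -1.32, SE 0.29, edgeR adjusted p = 0.00323) and 2.59-fold lower in S351A (log2 fold change -1.37, adjusted p = 0.00447). Kmo, the kynurenine hydroxylase, measured 268, 319 and 386 CPM in the cont. livers, 159, 213 and 208 CPM with Atg7 deleted and 126, 206 and 232 CPM with S351A added. Kmo was 1.68-fold lower in Atg7-KO (log2 fold change -0.75, SE 0.26, 95% interval -1.31 to -0.19, edgeR adjusted p = 0.0368) and 1.73-fold lower in S351A (log2 fold change -0.79, adjusted p = 0.0404). Its call in Atg7-KO did not hold under 7 of 19 alternatives, among them total library size (-0.21, adjusted p = 0.514) and leaving out cont. replicate 2 or 3 or any single Atg7-KO library, and in S351A against cont. it did not hold under 11 of 19. The count ratio of Tdo2 to Kmo, which no scaling touches, was 1.19, 1.26 and 1.61 in the cont. livers, 1.05, 0.835 and 0.930 with Atg7 deleted and 0.964, 0.837 and 0.963 with S351A added, and the cont. values did not overlap the others.

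**Figure D2:**
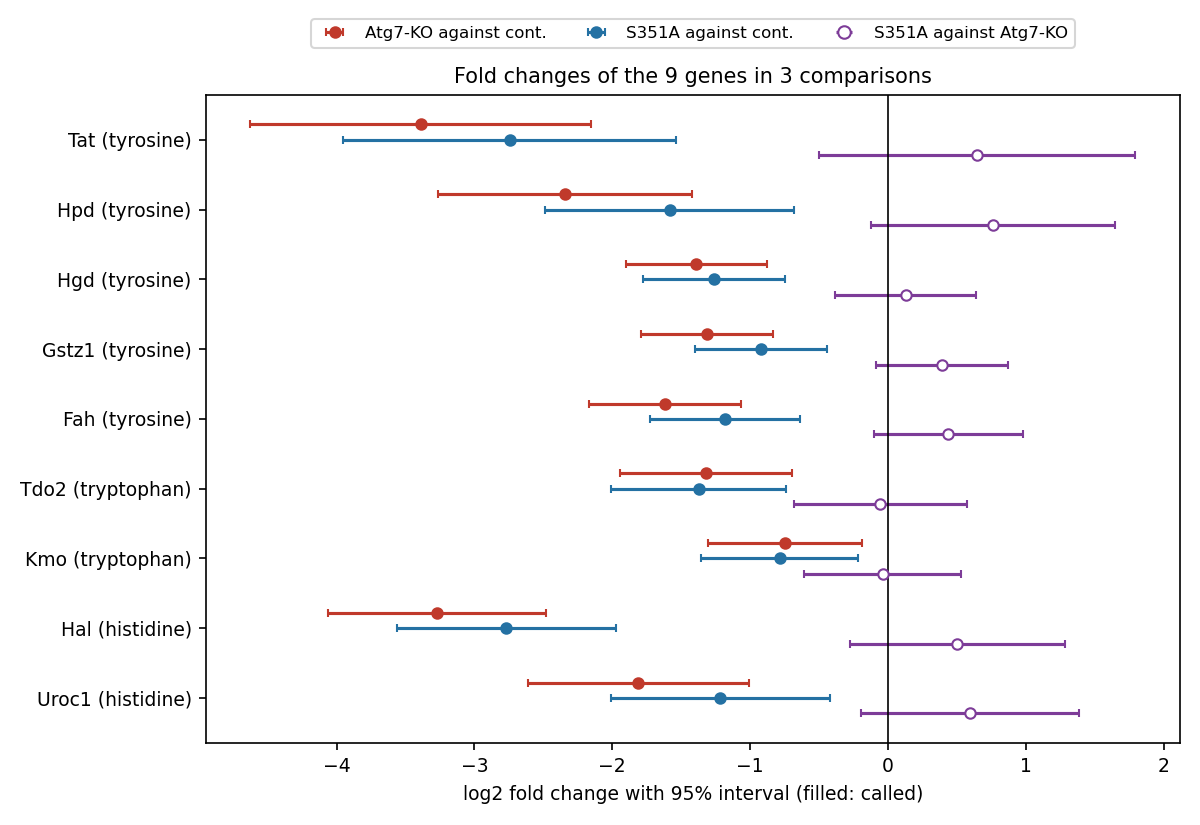
Log2 fold change (x axis) of each gene with its 95% interval in 3 comparisons, filled where called. The intervals of Tat (-4.62 to -2.15) and Kmo (-1.31 to -0.19) in Atg7-KO against cont. do not overlap, and every interval for S351A against Atg7-KO includes 0.

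The p62 change was compared in livers that all lack Atg7. None of the 9 members was called in S351A against Atg7-KO by the edgeR quasi-likelihood test, 0 had an unadjusted p under 0.05, and adjusted p ran from 0.827 to 0.995. Over all genes 0 were called higher and 0.00893% (1 gene) lower, and 6.60% had an unadjusted p under 0.05. By DESeq2, 0 members were called and 1 had an unadjusted p under 0.05. Of the members, 7 had a positive and 2 (Tdo2 and Kmo) a negative log2 fold change, with a median of 0.44 against 0.01 over all genes. Fah and Gstz1 were higher in all 3 S351A libraries than in all 3 Atg7-KO libraries, an order that 7.67% of all genes also showed. The difference was 0.44 on the log2 scale for Fah (95% interval -0.10 to 0.98) and 0.39 for Gstz1 (-0.08 to 0.87). The intervals reached 1.79 for Tat, 1.65 for Hpd, 1.38 for Uroc1 and 1.28 for Hal, and for all 9 members the interval ran beyond a 1.5-fold difference in at least 1 direction.

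The sign of several of these values rested on 1 library. S351A replicate 3 held the highest S351A level of 8 members, and replicate 1 the lowest level of all 9. Without replicate 3 the members' median fell to -0.017, with Tat at -0.49, Hgd at -0.051 and Uroc1 at -0.017, while Fah, Gstz1, Hpd and Hal kept a positive sign in every alternative. Without replicate 1 the median was 0.57, and 3 members had an unadjusted p under 0.05. In Atg7-KO, too, replicate 1 held the lowest level of all 9 members, and in both deleted groups replicate 1 was the only male library. Replicate and sex therefore cannot be told apart there, and with sex as a covariate the counts of members called in the 3 comparisons stayed at 9, 0 and 9. In cont., the female library was the highest for Hpd, Hgd, Gstz1, Fah and Uroc1, and male replicate 3 for Tat, Tdo2, Kmo and Hal.

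In S351A against cont. all 9 members were called lower, where 13.0% of all genes were, and every S351A library was below every cont. library for each of them, as for 18.4% of all genes. With total library size, S351A and cont. libraries overlapped for 5 members (Hpd, Gstz1, Fah, Kmo and Uroc1). The 18.4% is on the TMM scale, and no such share of all genes is given for total library size. The members' median was -1.26, against -0.03 over all genes. This comparison shares its control livers with the first one, so both sets of values lean on the same 3 libraries. With total library size, 4 members were called lower (Tat, Hgd, Tdo2 and Hal), where 512 of all 11199 genes were. With the 6 compared libraries alone 5 members were (Fah in addition), where 764 of the 9506 genes tested in that fit were. A test over the 3 groups at once found a difference for all 9 members (edgeR quasi-likelihood F test, adjusted p from 4.11e-05 for Hal to 0.0418 for Kmo), where 35.1% of all genes had an adjusted p under 0.05.

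Hepatocyte genes as a group were also lower. Of 14 hepatocyte markers, 10 were called lower in Atg7-KO against cont. and 0 higher, where 18.1% of all genes were called lower and 19.9% higher, with a median log2 fold change of -1.17, from Apoa2 (-3.08), an apolipoprotein, to Apob (0.22, not called). In bulk liver, fewer hepatocytes and less RNA of these genes per hepatocyte cannot be told apart. Set against the mean log2 level of these markers in the same library, a quantity in which library scaling cancels, Tat in Atg7-KO lay at -2.58, -2.09 and -1.92 relative to the cont. mean, and Hal at -2.44, -1.89 and -1.89. The cont. libraries lay at -0.41 to 0.24 for Tat and -0.39 to 0.22 for Hal, so the groups did not overlap. The S351A libraries, at -3.03 to -0.69 for Tat and -2.60 to -1.32 for Hal, did not overlap cont. either. For the other 7 members the Atg7-KO and cont. libraries overlapped on this measure. For Hpd, Uroc1, Fah and Hgd that overlap rested on cont. replicate 3 alone, which lay at -1.00, -0.67, -0.76 and -0.35, and without it only Gstz1, Tdo2 and Kmo overlapped. The Atg7-KO means were -1.09 for Hpd, -0.67 for Uroc1, -0.46 for Fah, -0.25 for Hgd, -0.18 for Gstz1, -0.13 for Tdo2 and 0.39 for Kmo.

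**Figure D3:**
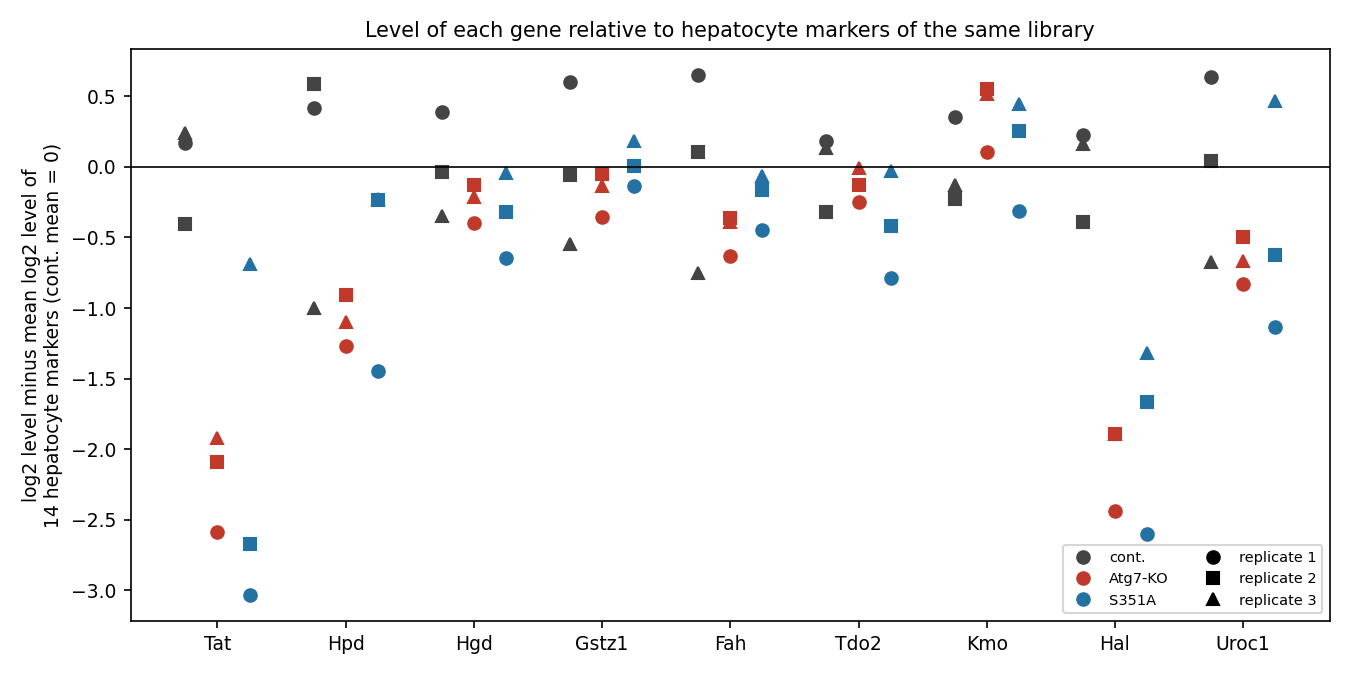
Log2 level of each gene minus the mean log2 level of 14 hepatocyte markers in the same library (y axis, cont. mean at 0), 1 point per library. Tat and Hal in Atg7-KO lie below all cont. libraries, from -2.58 to -1.89, while the other genes overlap cont., Hpd, Uroc1, Fah and Hgd only through cont. replicate 3.

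The make-up of the members' counts shifted as well. These shares add up to the members' own total, so a gene that was lower by less than the others takes a larger share. Of the members' counts, Tat made up 15.7 ± 7.47% (SD, n = 3) in the cont. livers, 5.59 ± 0.82% with Atg7 deleted and 5.70 ± 3.75% with S351A added. Hal made up 4.36 ± 1.87%, 1.69 ± 0.18% and 1.70 ± 0.22%. The shares of both genes in Atg7-KO were below every cont. share. The share of Kmo, itself called lower in level, was larger in the deleted groups, with 3.45 ± 0.84%, 7.77 ± 0.45% and 5.57 ± 0.41%, and so was that of Gstz1, also called lower, with 10.2 ± 1.33%, 15.6 ± 0.16% and 15.7 ± 3.74%. For Kmo and Gstz1 no share in either deleted group overlapped the cont. shares.

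Markers of other cells were read against the same shares of all genes, 19.9% called higher and 18.1% lower. In Atg7-KO against cont., 8 of 9 tested ductular markers were called higher, with summed levels of 82.4 to 131 CPM for cont., 911 to 1309 CPM for Atg7-KO and 832 to 1310 CPM for S351A. Of 15 macrophage markers 10 were called higher and 1 lower (sums of 277 to 431, 586 to 731 and 476 to 508 CPM in the same order). Of 10 tested stellate and matrix markers 7 were called higher (297 to 598, 1338 to 1811 and 1218 to 1751 CPM), with Timp1 at 0 in all cont. libraries, and all 9 tested proliferation markers were called higher (16.7 to 26.1, 132 to 173 and 120 to 125 CPM). Of 9 endothelial markers 1 was called higher, a share below that of all genes, and 4 lower, and 2 of 3 tested erythroid markers were called lower, with Hba-a1 at 0 in all 9 libraries. The part of these cells in the members' levels was not tested.

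Around the members, the same routes were read with a list of 43 further enzymes and transporters, 38 of which were tested. In Atg7-KO against cont. 23 were called lower and 2 higher, where 18.1% of all genes were called lower and 19.9% higher, with a median of -1.14. In the kynurenine route 7 of 9 were called lower, among them Haao, which makes the precursor of quinolinate (-1.86, edgeR adjusted p = 3.82e-05), Kynu, the kynureninase (-1.82), Afmid (-1.65), Ido2 (-1.47), Aadat (-1.54), Qprt (-1.18) and Ccbl1, a kynurenine aminotransferase (-2.22). In the histidine route the enzymes after Uroc1 were lower, with Amdhd1 at -2.03 and Ftcd at -1.68, as was Hdc, which makes histamine (-1.80), and the other 3 genes were not called. Qprt lost its call with total library size, with thinning and without cont. replicate 3 (-0.59) or Atg7-KO replicate 1 or 3. Among the genes of the pterin cofactor, Qdpr (-1.57), Pcbd2 (-1.80) and Gchfr (-0.96) were called lower, and the other 4 (Pcbd1, Gch1, Pts and Spr) were not called, at -0.51 to 0.26. The Gchfr call was lost with total library size, with thinning and without Atg7-KO replicate 1.

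Both called rises were outside the main chain of breakdown. Maoa, a monoamine oxidase, was higher by 3.29 on the log2 scale in Atg7-KO (SE 0.37, edgeR adjusted p = 4.31e-05) and by 1.58 in S351A (adjusted p = 0.0128, a call lost without cont. replicate 3 at 0.051), while its relative Maob was lower by a log2 fold change of -1.79 in Atg7-KO. Slc7a8, an amino acid transporter, was higher by 1.54 in Atg7-KO (edgeR adjusted p = 0.00556). Got1 (-1.59) and Fahd1 (-1.37) were lower on the side routes of tyrosine. Of 8 tested transporters 6 were called lower, where 18.1% of all genes were, among them Slc43a1 (-1.82), Slc38a3 (-1.63), Slc38a4 (-1.51), Slc16a10 (-1.10) and Slc15a4 (-0.98). The Slc16a10 call was lost with total library size, and that of Slc15a4 under 7 of 18 alternatives, among them leaving out any single Atg7-KO library. In S351A against cont. 19 of the 38 were called lower and 1 (Maoa) higher, where 13.0% of all genes were called lower and 15.6% higher. With total library size 13 were called lower and 4 higher, where 512 and 3498 of all 11199 genes were. In S351A against Atg7-KO 0 of the 38 were called by edgeR, with 6 at an unadjusted p under 0.05, where 6.60% of all genes had one. Maoa had a log2 fold change of -1.71 there (edgeR adjusted p = 0.311), and was called lower by DESeq2 and by edgeR without the filter on low counts. Without that filter Slc6a19, with at most 6 counts in any library, was called higher (log2 fold change 6.52).

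**Figure D4:**
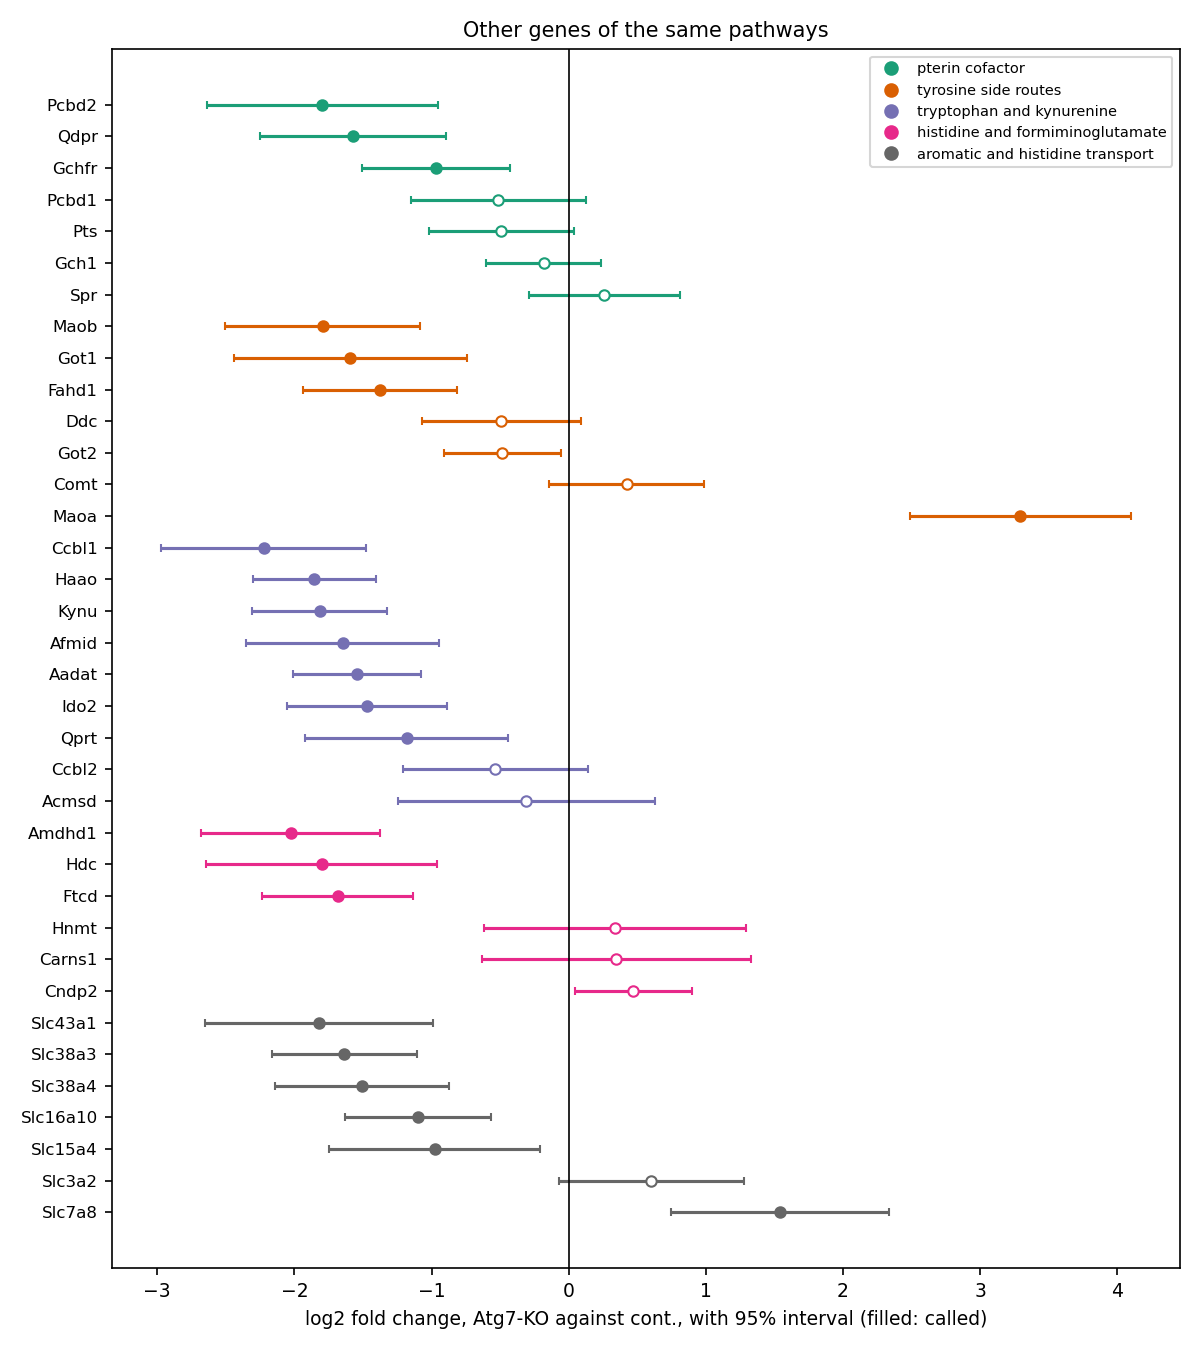
Log2 fold change in Atg7-KO against cont. (x axis) with its 95% interval for 36 other genes of the same pathways, coloured by route and filled where called. Of these, 21 are called lower and 2, Maoa (3.29) and Slc7a8 (1.54), higher, and 2 of the 38 tested genes, both called lower, are not plotted.

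Other gene lists were read against the 18.1% of all genes called lower and the 19.9% called higher in Atg7-KO against cont. Of 13 tested genes of the urea cycle and ammonia handling 11 were called lower and 1 higher (median -1.26), from Oat, the ornithine aminotransferase (-5.61), to the ammonia transporter gene Rhbg (0.79). Of 16 genes of methionine and one-carbon metabolism 14 were called lower and 1 higher (median -1.51), from Cth (-2.77) to Mthfd1l, with a mean of 0.543 CPM in the cont. livers, at most 4 counts per library, and 9.24 CPM in Atg7-KO. Of 15 periportal markers 10 were called lower and 1 higher (median -1.26), and of 15 pericentral markers 8 lower and 2 higher (median -1.27). Of 15 transcription factors of hepatocyte and hormone response 2 were called lower, a share below that of all genes, from Nr1h4, the bile acid receptor (-1.61), to Cebpd (0.74, not called). Of 17 NRF2 targets 13 were called higher (median 1.46), from Me1 (-0.29, not called) to Slc7a11, with a mean of 0.265 CPM in the cont. livers, under 3 counts in each library, and 165 CPM in Atg7-KO. In S351A against Atg7-KO 16 of the 17 had a negative log2 fold change (median -0.91), as had 5461 of all 11199 genes. By edgeR 14 of the 17 had an unadjusted p under 0.05, where 6.60% of all genes had one, and 0 were called.

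The members followed each other closely over the libraries. The correlation of each member with the mean profile of the other 8 ran from 0.905 for Kmo to 0.994 for Hgd over 9 libraries, which share 3 groups and 1 scaling, so this is a description. Of 9651 other genes with a group mean of at least 10 CPM, the 5 most like the members' mean profile included Ahcy (r = 0.996), Cyp2c37 (0.992), Akap1 (0.991) and Abcc6 (0.991). Ahcy, which hydrolyses S-adenosylhomocysteine, had a mean of 2128 CPM in the cont. livers, 513 CPM with Atg7 deleted and 695 CPM with S351A added. For Cyp2c37, a cytochrome P450, the means were 914, 21.5 and 71.9 CPM. With total library size these 4 were again among the 5 most alike genes.

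**Figure D5:**
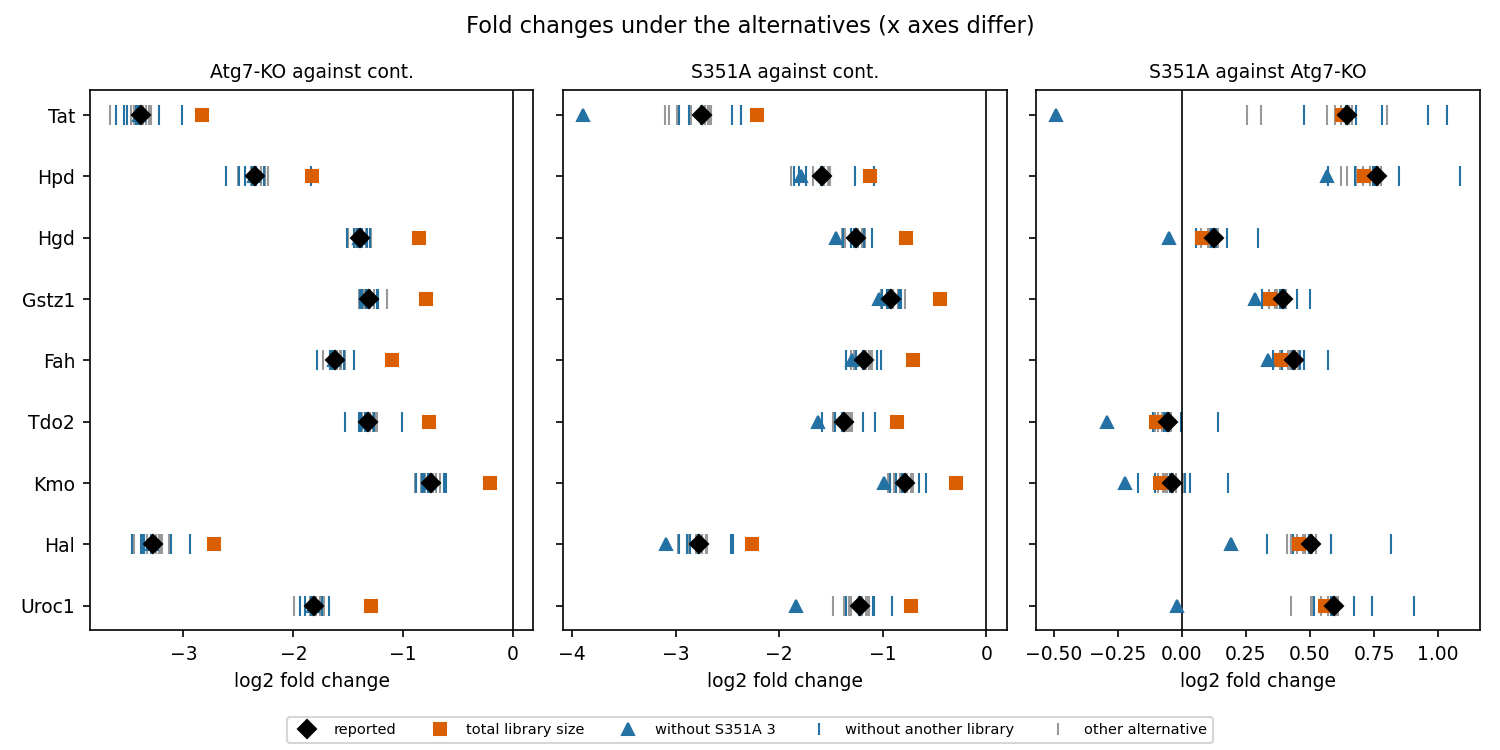
Log2 fold change (x axes, which differ between panels) of each gene as reported (diamonds), with total library size (squares), without S351A replicate 3 (triangles) and under the other alternatives (ticks). All 9 genes stay below 0 in both comparisons with cont., while in S351A against Atg7-KO Tat, Hgd, Tdo2, Kmo and Uroc1 cross 0.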

How the data were processed

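Libraries were made from poly(A) RNA of 9 livers and read as 75-bp single ends. The authors trimmed reads with Trim Galore, aligned them to mm10 with STAR and deposited RSEM expected counts per gene; versions, annotation and strand setting are not given in the sources used here. Values that were not whole numbers made up 4.40 to 7.75% per library and were rounded. Genes were filtered with filterByExpr (10 counts, 15 in total), scaled by TMM and fitted in 1 quasi-likelihood model over the 9 libraries (edgeR 4.0.16, R 4.3.3). P-values were adjusted by Benjamini-Hochberg over 11199 genes. The script was tested on simulated data. Alternatives were RLE and total library size, other filters, DESeq2 1.42.0, limma-voom (limma 3.58.1), the 6 compared libraries alone, a replicate block, sex, thinning and leaving out each library. Replicates are separate mice by their titles. Named genes were the members, Atg7, called genes of the wider list, the 5 most alike genes and the extremes of the other lists; a few of these are not reported here. The members and lists were chosen with earlier results of these data known, and the comparison with hepatocyte markers was added after the data were seen. Gene positions are from GENCODE for GRCm38; 23376 of 24411 symbols matched. Intervals cover the spread between libraries.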

Additional observations from a re-analysis of the deposited data

How the results depend on the processing

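In Atg7-KO against cont., 8 of 9 members (Tat, Hpd, Hgd, Gstz1, Fah, Tdo2, Hal and Uroc1) were called lower under all 19 alternative fits, and all 9 kept a negative sign; in S351A against cont. 4 (Tat, Hgd, Tdo2 and Hal) were called under all 19 and all 9 kept the sign. Total library size raised the median of all genes by 0.54 and 0.49 in these comparisons. It gave member medians of -1.10 and -0.78, and Atg7 values of -0.21 (edgeR adjusted p = 0.829) and -0.59 (adjusted p = 0.0614). In S351A against cont. it called 4 members lower, where 512 of all 11199 genes were. Of the 38 other pathway genes it called 18 lower and 6 higher in Atg7-KO against cont., where 801 and 4284 of all 11199 genes were. With the 6 compared libraries alone 5 members were called lower in S351A against cont., where 764 of 9506 genes were. Leaving out 1 library gave member medians of -1.78 to -1.45 in Atg7-KO against cont. and -0.017 to 0.57 in S351A against Atg7-KO. It left 8 to 9 members called lower in Atg7-KO against cont. and 7 to 9 in S351A against cont. In S351A against Atg7-KO, where no value was called, Tat (-0.49), Hgd (-0.051) and Uroc1 (-0.017) turned negative without S351A replicate 3, Tdo2 (0.14) turned positive without S351A replicate 1, and Kmo turned positive when thinned (0.0044) and without Atg7-KO replicate 2 (0.030) or 3 (0.012) or S351A replicate 1 (0.18); the cause was not tested. Over the 9 fits without 1 library these values ran from -0.49 to 1.04 for Tat, from -0.051 to 0.30 for Hgd, from -0.017 to 0.91 for Uroc1, from -0.29 to 0.14 for Tdo2 and from -0.22 to 0.18 for Kmo. Same-numbered libraries of different groups correlated at -0.041 to 0.31, with 5 of 9 pairs over 0.1, and differently numbered ones at -0.26 to 0.21. Replicate 1 was male and replicate 2 female in all 3 groups, so a shared number and a shared sex cannot be told apart for these. The titles number the mice without naming pairs, and the main fit did not treat the numbers as pairs. With the replicate number as a block 9, 0 and 9 members were called, with medians of -1.61, 0.39 and -1.33, and counts over all genes of 2297 higher and 2016 lower in Atg7-KO against cont. By DESeq2, 23 genes were called higher and 17 lower in S351A against Atg7-KO, and without the filter 61 and 37, against 0 and 1 as reported. The shallow S351A libraries limit low genes most, and Hal rested there on 27 to 67 counts.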
